A study of Mus musculus with 6 samples.

Results

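The BCL-2 family genes described here are 10 named members whose proteins decide at the mitochondrion whether a cell survives or dies. They comprise the guardians Bcl2, Bcl2l1 and Mcl1, the pore-forming effectors Bax and Bak1, and the BH3-only genes Bcl2l11, Bid, Bad, Bbc3 and Pmaip1. Members were found by gene symbol, and each gene is given by its probe with the highest mean non-normalized signal over the 6 arrays. Of the 10 members, 9 had a probe in the platform annotation and 8 were detected, at a detection p under 0.01, on at least 1 array. Bax was not analysed here, since no probe of the annotation carries its symbol. The 3 probes of Pmaip1, which encodes the BH3-only protein NOXA, were not detected on any array, with a lowest detection p of 0.0182, so no level is given for it. The 8 measured members are among 8347 named genes tested, which with 2340 unnamed probes make up 10687 features.

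Guardians such as BCL-2, BCL-XL (from Bcl2l1) and MCL-1 hold the effectors BAX and BAK in check. BH3-only proteins such as BIM (from Bcl2l11) and PUMA (from Bbc3) neutralise the guardians or trigger the effectors, which then open the outer mitochondrial membrane and release cytochrome c. In T cells, BCL-2 and MCL-1 keep resting cells alive, BCL-XL is induced by antigen and CD28 signals, and BIM removes responding cells after an immune response.

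T cells came from spleen and lymph node of male C57BL/6 mice, either rejecting, tolerant or naive, and were sorted into a CD69+ and a CD69- fraction. Rejecting mice carried, untreated, tail skin of BDF1 donors (the cross C57BL/6 x DBA/2) for 7 days, tolerant mice carried such a graft for 100 days after transfusion of donor cells and the anti-CD40L antibody MR-1, and naive mice had no graft. Before the sort, every sample had spent 20 to 21 h in culture beside T cell-depleted spleen cells of the donor strain, so the naive cells had also met donor antigen. CD69 is a surface protein gained soon after T cell receptor triggering, so the CD69+ fraction is enriched for responding cells, and the sort was on CD3 and CD69.

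Illumina MouseWG-6 arrays were used, 1 for each pairing of status with fraction, and 12669 to 13469 probes were detected on an array. No combination was repeated, and how many mice stand behind a sample is not given in the sources used here. P-values therefore measure how a difference varied between the 3 statuses or between the 2 fractions. Precision is limited by there being 6 arrays. Of 12 T cell markers, 10 were detected, without Cd8a and Lck. The sort marker Cd69 rose in CD69+ cells by a log2 difference of 1.53 (SE 0.21, adjusted p = 0.00343, limma). Of the 10, 1 (Cd69) rose and 6 fell at an adjusted p under 0.05, beside 29.6% and 33.1% of all features. The median log2 difference of the 10 was -0.53, against -0.05 over all features. Their summed level was 138950 to 166670 in CD69+ and 200900 to 222600 in CD69- libraries. Among markers of other cells, 3 of 12 B cell genes were detected, with Ms4a1 and Pax5 not detected, and 1 of 10 myeloid genes. The 3 detected of 8 erythroid genes, all hemoglobin genes, had a summed level of 1258 to 5397 in CD69+ and 2697 to 37395 in CD69- libraries. In bulk samples, fewer cells of a type and less RNA per cell cannot be told apart.

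The first comparison asks how the survival and death genes differ between CD69+ and CD69- cells. The family did not move one way: Bcl2l1, Bid and Bak1 rose in CD69+ cells, while Bbc3, Mcl1 and Bcl2l11 fell, and Bcl2 and Bad did not pass the test. With limma, status entering as a block, 6 of the 8 measured members had an adjusted p under 0.05, 3 in each direction. Over all 10687 features, 62.7% passed the same rule, 29.6% upwards and 33.1% downwards, so the members' share of calls is not far from the background, and the sizes and directions of single genes carry the description. The median log2 difference of the 8 was -0.07, against -0.05 over all features. Within single pairs, 5 of 8 members differed at least 1.5-fold at a signal of 500 or more in each of rejecting, tolerant and naive mice, against 36.8%, 33.8% and 40.5% of all features in that order. In the tolerant pair Bcl2 was among the 5 and Bcl2l11 was not, and in the rejecting and naive pairs it was the reverse. None of the 8 differed that much in opposite directions in different statuses, which 0.0561% of features did.

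**Figure D1:**
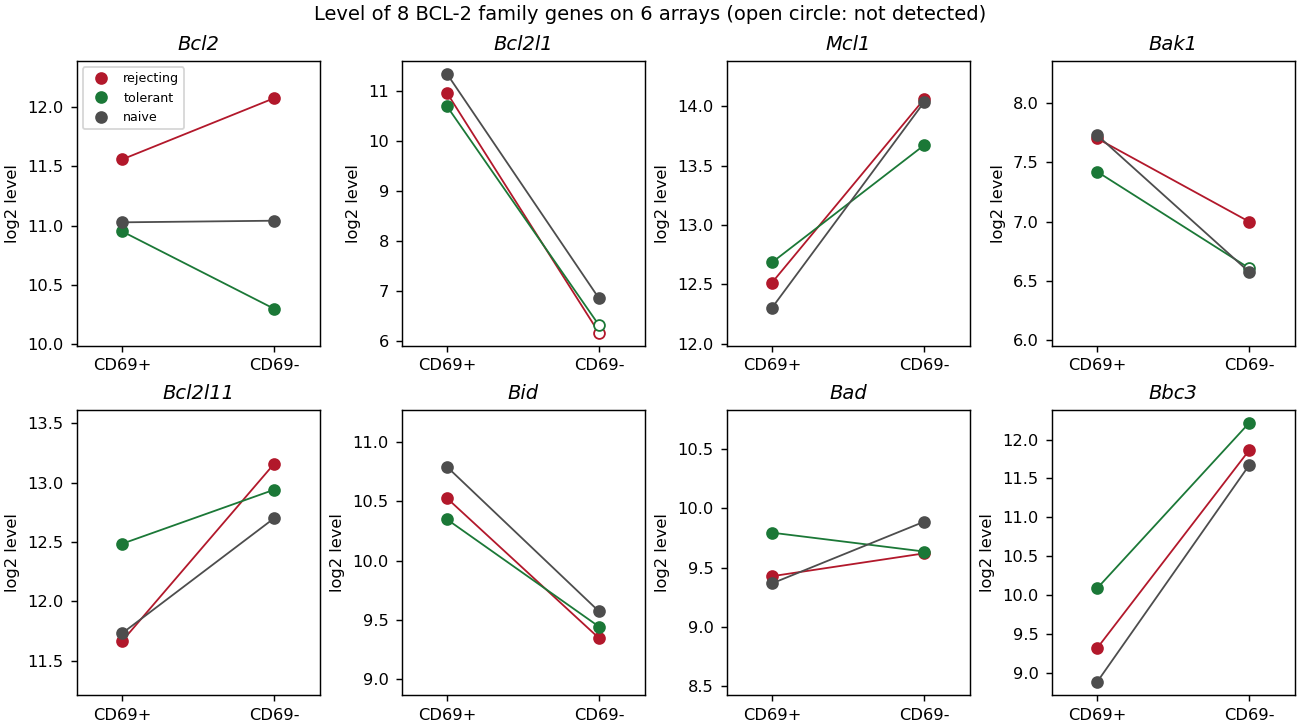
Level of the 8 measured members (log2 of normalized intensity) in CD69+ and CD69- cells, 1 array per point, with a line joining the fractions of rejecting, tolerant and naive mice and open circles where the probe was not detected. The lines of Bcl2l1, Bid and Bak1 are higher on the CD69+ side, those of Bbc3, Mcl1 and Bcl2l11 on the CD69- side, and the 3 lines of Bcl2 spread apart on the CD69- side, at 12.07 in rejecting, 10.30 in tolerant and 11.04 in naive mice.

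Bcl2l1, the gene of BCL-XL, showed the widest gap of the family. Its log2 level was 10.96, 10.69 and 11.34 in rejecting, tolerant and naive CD69+ cells, against 6.15, 6.31 and 6.85 in rejecting, tolerant and naive CD69- cells. The 2 fractions did not overlap, and 68.6% of all features shared that property. Bcl2l1 averaged 10.997 ± 0.33 in CD69+ and 6.44 ± 0.36 in CD69- cells (SD, n = 3 arrays each), a log2 difference of 4.56 (SE 0.13, adjusted p = 0.00049, limma), higher in 3 of 3 pairs. The probe was detected in CD69- cells of naive mice alone, where the fold was 22.6. In the other pairs the CD69- level lay below detection, and CD69+ cells were at least 17.7-fold higher in rejecting and at least 16.2-fold higher in tolerant mice. These bounds hold for background-corrected levels: in the authors' value table, and likewise without background correction, the mean log2 difference was 3.26 (adjusted p = 7.32e-05, limma). Of the other detected probes of Bcl2l1, ILMN_2647885 had signals of 823 to 1451 in CD69+ libraries and was not detected in any CD69- library. ILMN_2742557 was detected in all CD69+ libraries and, among CD69- libraries, in that of naive mice alone.

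Mcl1, a guardian whose protein turns over quickly, went the other way. Its log2 level was 12.52, 12.69 and 12.30 in rejecting, tolerant and naive CD69+ cells, against 14.06, 13.67 and 14.03 in rejecting, tolerant and naive CD69- cells. All 3 CD69+ libraries were lower than all 3 CD69- libraries, and the gap was narrowest in the tolerant pair. Mcl1 averaged 12.50 ± 0.19 in CD69+ and 13.92 ± 0.22 in CD69- cells (SD, n = 3 arrays each), so that it fell by 1.42 on the log2 scale (SE 0.18, adjusted p = 0.00258, limma), a level 2.68-fold higher in CD69- cells. The array holds 1 probe named Mcl1, so no other probe could be set beside it, and transcript forms cannot be told apart.

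Bcl2 itself, the founding guardian of the family, had no common difference between the fractions. Its log2 level was 11.56, 10.95 and 11.03 in rejecting, tolerant and naive CD69+ cells, against 12.07, 10.30 and 11.04 in rejecting, tolerant and naive CD69- cells. The fractions overlapped. The mean log2 difference was 0.04 (SE 0.24, 95% interval -0.58 to 0.67, adjusted p = 0.895, limma). The 3 pairs disagreed: CD69+ minus CD69- was -0.52 in rejecting, 0.65 in tolerant and -0.01 in naive mice. Without the tolerant pair the mean was -0.26 (adjusted p = 0.212, limma). With 1 array per combination, a difference between pairs has no test.

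**Figure D2:**
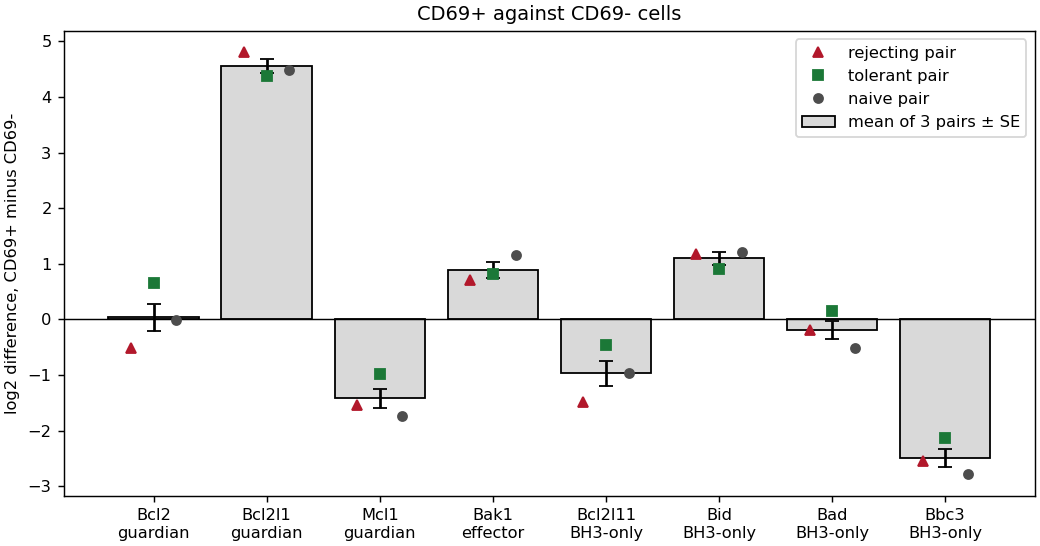
Log2 difference between CD69+ and CD69- cells for each measured member, grouped as guardians, effector and BH3-only genes, with bars for the mean of 3 pairs, error bars for the limma SE and symbols for single pairs. Bcl2l1 stands at 4.56 and Bbc3 at -2.49, and the symbols of Bcl2 and Bad lie on both sides of 0.

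Of the effectors, Bak1 was measured. BAK is the effector that resides on the outer mitochondrial membrane. Its log2 level was 7.70, 7.42 and 7.73 in rejecting, tolerant and naive CD69+ cells, against 7.00, 6.61 and 6.58 in rejecting, tolerant and naive CD69- cells. The fractions did not overlap, and Bak1 rose by a log2 difference of 0.89 (SE 0.14, adjusted p = 0.00446, limma). Its signal was low, from 232 to 359 before normalization, and it was not detected in tolerant CD69- cells. The fold of this dim gene depends on the background correction, as the log2 difference was 0.45 in the authors' value table.

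The BH3-only genes split. Bid, whose protein links death receptors to the mitochondrion once caspase-8 has cut it, had log2 levels of 10.53, 10.35 and 10.79 in rejecting, tolerant and naive CD69+ cells, against 9.35, 9.44 and 9.57 in rejecting, tolerant and naive CD69- cells. The CD69+ libraries all lay above the CD69- libraries, and Bid rose by 1.10 (SE 0.12, adjusted p = 0.00193, limma), or 2.14-fold. Bad, whose protein binds BCL-XL unless growth factor kinases phosphorylate it, had log2 levels of 9.43, 9.79 and 9.37 in rejecting, tolerant and naive CD69+ cells, against 9.62, 9.64 and 9.89 in rejecting, tolerant and naive CD69- cells. Its fractions overlapped, with a mean log2 difference of -0.18 (SE 0.16, 95% interval -0.61 to 0.24, adjusted p = 0.365, limma).

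Bbc3, the gene of PUMA, had the furthest fall of the family. Its log2 level was 9.31, 10.08 and 8.88 in rejecting, tolerant and naive CD69+ cells, against 11.86, 12.21 and 11.67 in rejecting, tolerant and naive CD69- cells. No CD69+ library reached any CD69- library, and in both fractions the tolerant library was the highest. Bbc3 averaged 9.43 ± 0.61 in CD69+ and 11.91 ± 0.28 in CD69- cells (SD, n = 3 arrays each). It fell by 2.49 on the log2 scale (SE 0.16, adjusted p = 0.000896, limma), a level 5.61-fold higher in CD69- cells and rank 66 from the bottom of 10687 features. Its other probes, ILMN_2690621 and ILMN_2690620, were dim, with signals from 205 to 254. They gave log2 differences of -0.59 (adjusted p = 0.0174, limma over all detected probes) and -0.45 (adjusted p = 0.0726).

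Bcl2l11, the gene of BIM, had log2 levels of 11.66, 12.48 and 11.73 in rejecting, tolerant and naive CD69+ cells, against 13.16, 12.94 and 12.70 in rejecting, tolerant and naive CD69- cells. The fractions did not overlap, but the tolerant CD69+ library came close to the CD69- ones, and the pair differences were -1.49, -0.46 and -0.97 in rejecting, tolerant and naive mice. Bcl2l11 fell by 0.97 (SE 0.22, adjusted p = 0.015, limma). This call is the least secure of the 6: it ends without the rejecting pair (-0.71, adjusted p = 0.0565) and without the naive pair (-0.97, adjusted p = 0.0513). Of its other 3 detected probes, ILMN_2590638 fell by 0.90 (adjusted p = 0.00997, limma over all detected probes), and the dimmer ILMN_1229255 and ILMN_3078327 had log2 differences of -0.31 and -0.53, which did not pass (adjusted p = 0.19 and 0.0857).

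Promoter windows of the 2 BH3-only genes that fell are shown because they share a motif, beside the first of 3 windows of Bcl2l1, which rose. Sequences are those of RefSeq on GRCm38.p6, from 250 bases before to 50 bases after a start site, written 5′ to 3′ on the gene's strand, with matches to the FOXO core GTAAACA on either strand in capitals. FOXO proteins are transcription factors of resting T cells known to act on both Bcl2l11 and Bbc3.
Bbc3, chr7:16310011-16310310, plus strand: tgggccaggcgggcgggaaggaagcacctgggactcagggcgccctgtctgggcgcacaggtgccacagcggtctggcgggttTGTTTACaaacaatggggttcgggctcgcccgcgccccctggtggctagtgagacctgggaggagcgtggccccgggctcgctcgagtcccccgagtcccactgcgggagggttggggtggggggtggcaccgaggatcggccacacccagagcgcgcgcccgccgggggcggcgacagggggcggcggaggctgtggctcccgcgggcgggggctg
Bcl2l11, chr2:128125788-128126087, plus strand: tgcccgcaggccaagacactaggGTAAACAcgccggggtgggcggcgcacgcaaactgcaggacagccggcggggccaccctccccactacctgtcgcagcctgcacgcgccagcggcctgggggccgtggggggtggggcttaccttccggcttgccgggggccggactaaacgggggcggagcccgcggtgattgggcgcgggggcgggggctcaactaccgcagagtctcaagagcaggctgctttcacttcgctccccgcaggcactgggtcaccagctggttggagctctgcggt
Bcl2l1, chr2:152831679-152831978, minus strand: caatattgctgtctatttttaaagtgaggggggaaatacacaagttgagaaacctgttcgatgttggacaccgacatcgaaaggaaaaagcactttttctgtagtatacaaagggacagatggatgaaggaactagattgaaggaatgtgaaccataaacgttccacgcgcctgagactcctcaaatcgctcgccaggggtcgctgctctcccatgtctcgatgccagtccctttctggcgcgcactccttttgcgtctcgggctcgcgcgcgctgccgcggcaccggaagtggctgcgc
The match starts at position -167 in the second of 3 windows of Bbc3 and at -227 in the first of 2 windows of Bcl2l11, counted from the start site. Windows were searched for 9 of the 10 members, and those 2 members had a FOXO match, while 4.05% of 27025 genes in the promoter table have one. Counted by window, 3.65% of 32851 windows have one, and a gene with several windows has more chances of a match. For comparison, the STAT motif TTCNNNGAA and the AP-1 motif TGANTCA were found in 0 of the 9 members, against 9.55% and 8.97% of all genes. The E-box CACGTG was found in Bax and Bbc3, against 8.09%, and the GC box GGGCGG in 7 of 9 members, against 38.2%, with both strands searched each time and no overlap between the FOXO matches and another motif. A match is a string of letters and not a measured binding site. Transcripts of Foxo3 (-0.87, SE 0.15, adjusted p = 0.00602, limma) and Foxo1 (-0.86, SE 0.11, adjusted p = 0.00283) also fell in CD69+ cells. Foxo1 was singled out after its values were seen. Mcl1, which fell as well, had no FOXO match in its window. Whether FOXO factors had a part in the falls of Bbc3 and Bcl2l11 was not tested.

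The second comparison asks whether recipient status changed the family in both fractions together. In limma with fraction as a block, 0 of the 8 members passed an adjusted p of 0.05 in any of the 3 contrasts, and 2 members in each had an unadjusted p under 0.05. The background was as sparse: 0.0187% of all features passed between rejecting and tolerant, 0.00936% between tolerant and naive, and 0% between rejecting and naive. At an unadjusted p under 0.05 the background was 14.3%, 12.1% and 4.74% in the same order. The contrasts share libraries and are not independent of each other.

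Bcl2 had the furthest status gap among the members, each given by its probe with the highest mean signal. Over both fractions its mean log2 level was 11.82 in rejecting, 10.63 in tolerant and 11.03 in naive cells. The difference was 1.19 between rejecting and tolerant (SE 0.29, unadjusted p = 0.0107, adjusted p = 0.256, limma), rank 83 from the top of 10687 features, and it did not pass. It was 0.78 between rejecting and naive (SE 0.29, adjusted p = 0.969, limma) and -0.41 between tolerant and naive (SE 0.29, adjusted p = 0.546). The gap was widest in CD69- cells, where single libraries of rejecting and tolerant mice differed 3.42-fold, against 1.52-fold in CD69+ cells. The same order was seen with each of the 5 detected Bcl2 probes, of 9 on the array. In CD69- cells all 5 ranked rejecting above naive and naive above tolerant, and in CD69+ cells all 5 were highest in rejecting mice. These probes read 1 gene in the same 6 libraries and are no repeats of the status. The dimmest, ILMN_1215796, was not detected in either tolerant library, so its place for tolerant mice is below detection and no size is given. Bcl2l1 differed by -0.59 between tolerant and naive (adjusted p = 0.404, limma) and by -0.54 between rejecting and naive (adjusted p = 0.969). Between tolerant and naive, its probes ILMN_2647885 and ILMN_2742557 had -0.77 and -1.20 (adjusted p = 0.394 each, limma over all detected probes). None of these Bcl2l1 probes was detected in tolerant CD69- cells, so the sizes are uncertain.

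**Figure D3:**
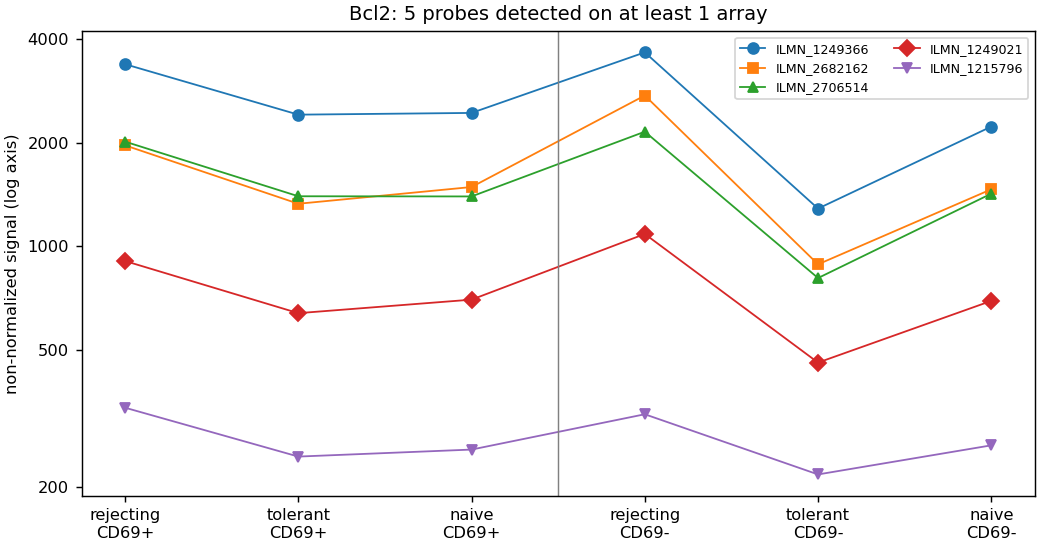
Non-normalized signal (log axis) of the 5 detected Bcl2 probes on the 6 arrays, CD69+ on the left and CD69- on the right, each line 1 probe. All 5 lines are lowest in tolerant CD69- cells, and for the brightest probe, ILMN_1249366, that signal is 1286, against 3655 in rejecting and 2225 in naive CD69- cells.

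Hemoglobin transcripts were also lowest in the tolerant libraries, their summed level being 1258 in CD69+ and 2697 in CD69- cells of tolerant mice. The sums were 5171 and 29150 in rejecting and 5397 and 37395 in naive CD69+ and CD69- cells. The 3 detected B cell markers summed to 3235 and 2137 in tolerant, 1044 and 1360 in rejecting, and 1547 and 1674 in naive CD69+ and CD69- cells. Of 6 plasma cell markers 2 were detected, Mzb1 and Xbp1. Mzb1 had a log2 level of 8.11 in rejecting, 11.44 in tolerant and 7.54 in naive CD69+ cells, against 6.92, 6.77 and 7.24 in CD69- cells in the same order. Xbp1 was lowest in tolerant mice, at 13.74, 13.48 and 13.54 in rejecting, tolerant and naive CD69+ cells. In CD69- cells it stood at 12.82, 12.32 and 12.49 in the same order. The plasma cell markers Jchain, Sdc1, Prdm1 and Tnfrsf17 were not detected, and the 2 detected ones summed to 12136 to 14239 in CD69+ and 5230 to 7331 in CD69- libraries. Of 8 NK cell markers 4 were detected, without Ncr1, Klra8, Klrk1 and Tyrobp, and their sum was 14136 to 15191 in CD69+ and 10347 to 12053 in CD69- libraries. Klrb1c, Klre1 and Fcer1g were highest in tolerant CD69+ cells, at 8.01, 7.96 and 8.04. Nkg7, the brightest of the detected NK cell markers, was not: it stood at 13.86 in rejecting, 13.80 in tolerant and 13.76 in naive CD69+ cells. The part of these other cells in the tolerant values of Bcl2 and the other members was not tested.

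Within CD69+ cells, each status is 1 library and differences carry no test. Counted here were differences of 1.5-fold or more where the brighter library reached a signal of 500, the sizes the study used for its candidate genes, were counted. Between tolerant and naive CD69+ cells, 3 of 8 members differed so, against 15.2% of all features. Bbc3 was 2.31-fold and Bcl2l11 1.69-fold higher in tolerant cells, and Bcl2l1 was 1.57-fold lower. For Bcl2l1 the other detected probes had log2 differences of -1.09 and -1.23, the same direction. For Bcl2l11 the second bright probe, ILMN_2590638, had 0.37, and the dimmer ILMN_1229255 -0.41, so the probes of this gene disagreed. ILMN_3078327 (-0.15) was not detected in either library. For Bbc3, the dim ILMN_2690621 had 0.69 and was not detected in naive CD69+ cells. ILMN_2690620 (-0.59) was not detected in either library. Bad (0.43), Mcl1 (0.38), Bak1 (-0.31) and Bid (-0.44) stayed within 1.5-fold between tolerant and naive CD69+ cells, as did Bcl2 (-0.08).

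Between rejecting and tolerant CD69+ cells, 3 of 8 members also passed that size, against 11.3% of all features. Bcl2 was 1.52-fold higher in rejecting cells, and Bcl2l11 and Bbc3 were 1.77-fold and 1.71-fold lower. For Bcl2l11, ILMN_2590638 had a log2 difference of -0.60 and the dimmer ILMN_1229255 0.13, so its probes disagreed here too. ILMN_3078327 (-0.07) was not detected in either library. For Bbc3, ILMN_2690621 had -0.215 and was not detected in rejecting CD69+ cells, and ILMN_2690620 (0.12) was not detected in either library. Both lists of differences share the tolerant CD69+ library. Between rejecting and naive CD69+ cells 0 of 8 members passed, against 2.05% of all features, and the largest differences were those of Bcl2 (0.53) and Bbc3 (0.43).

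In CD69- cells, Bcl2 alone of the 8 members passed the size in each contrast. It was 3.42-fold higher in rejecting than in tolerant cells, where 4.96% of all features passed. It was 1.67-fold lower in tolerant than in naive cells (2.23% of features) and 2.05-fold higher in rejecting than in naive cells (1.93%). Bbc3 (0.55) and Mcl1 (-0.36) differed less between tolerant and naive CD69- cells. None of the 8 members met the study's criteria for tolerance genes, which 1.9% of features met, or for rejection genes, which 2.69% met. Bcl2 failed the rejection criteria at the step that asks for higher levels in CD69+ than in CD69- cells of rejecting mice.

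**Figure D4:**
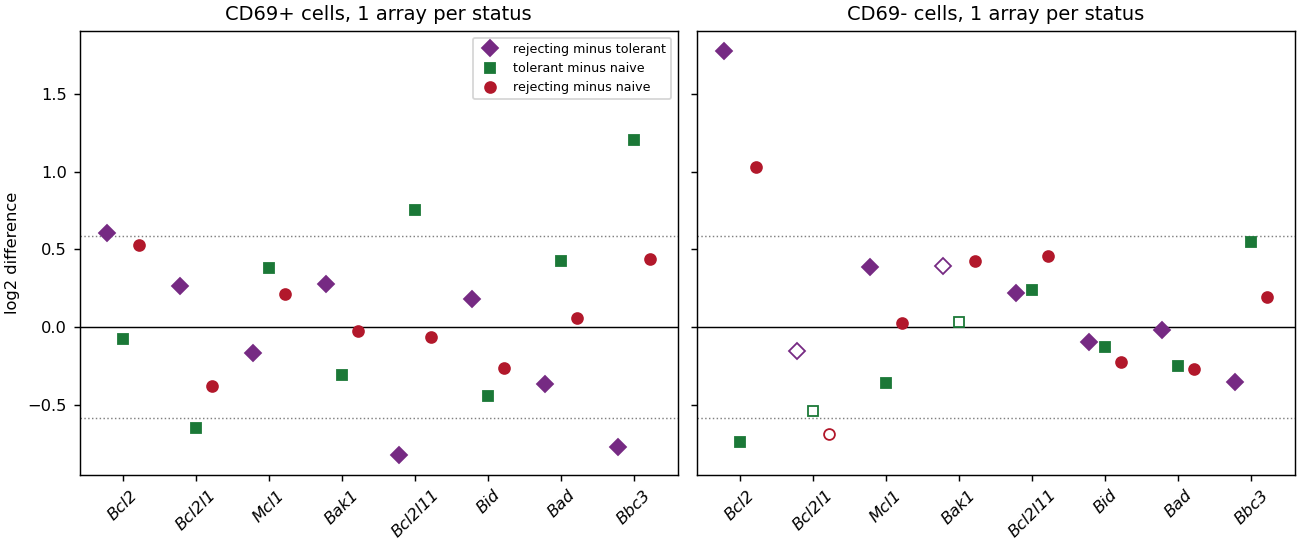
Log2 differences between statuses within CD69+ cells (left) and CD69- cells (right), 1 array per status, with dotted lines at 1.5-fold and open symbols where 1 or both libraries did not detect the probe. In CD69+ cells Bbc3 and Bcl2l11 lie highest for tolerant minus naive, at 1.21 and 0.75, and in CD69- cells Bcl2 lies highest for rejecting minus tolerant, at 1.77.

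Genes whose level followed a member over the 6 arrays were looked up among 6623 named genes detected on all arrays. Those most like Bcl2 were Tdrd7 (Pearson r = 0.977), Dapp1 (r = 0.973) and Gadd45g (r = 0.968). Gadd45g stood at 13.08, 12.22 and 12.79 in rejecting, tolerant and naive CD69+ cells, against 13.86, 11.48 and 12.79 in rejecting, tolerant and naive CD69- cells, so it had the low tolerant CD69- library too. Those most like Bcl2l1 were Nol6 (r = 0.9998), Gps1 (r = 0.9997) and Plscr1 (r = 0.9997). Nol6, Gps1 and Plscr1 follow the split between the fractions, and the 6 points share that split. Tdrd7, Dapp1 and Gadd45g do not follow it, being higher in CD69+ than in CD69- cells in the tolerant pair alone. All coefficients are given as a description.

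Other members of the family, outside the 10, were mostly higher in CD69+ cells. Of 15 listed, 8 were tested, and 6 rose and 1 fell, where 29.6% of all features rose and 33.1% fell. The median log2 difference of the 8 was 0.59, against -0.05 over all features. The A1 guardians Bcl2a1d (2.46, SE 0.15, adjusted p = 0.000858, limma) and Bcl2a1b (2.42, SE 0.14) rose, and as near-identical copies they may share signal. The BCL-W gene Bcl2l2 (1.24), Bcl2l12 (0.59), the BH3-only gene Bik (0.59) and the mitophagy receptor gene Bcl2l13 (0.40) rose less. Bmf, another BH3-only gene, was detected on 2 arrays and stood at -0.44 (adjusted p = 0.247). Bnip3l, which clears mitochondria from maturing red cells, fell by 1.55 (SE 0.14, adjusted p = 0.00139, limma). Hemoglobin genes fell between the fractions as well, Hbb-bt by -2.21 (SE 0.36, adjusted p = 0.00524, limma). Between statuses the 2 genes parted: in rejecting, tolerant and naive CD69- cells Bnip3l stood at 13.71, 13.72 and 13.67. Hbb-bt stood at 13.32, 9.82 and 13.72 there. The part of red cell transcripts in the Bnip3l difference was not tested.

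Downstream of the mitochondrion, released factors and caspases went separate ways. Of 13 listed genes of the apoptosome and executioner caspases, 9 were tested, and 5 rose and 3 fell, where 29.6% of all features rose and 33.1% fell. The protease gene Htra2 (1.53) and the cytochrome c gene Cycs (1.46) rose most, and the initiator caspase gene Casp9 (-1.20) and Casp6 (-0.71) fell most. Of 8 inhibitor of apoptosis genes, 4 were tested, and 1 rose and 1 fell, beside the same 29.6% and 33.1% of all features. Birc5, the gene of survivin, which also serves cell division, rose by 2.06, Birc2 fell by 0.85, and the other 2 did not pass. Of 11 death receptor genes, 10 were tested, and 2 rose and 3 fell, beside the same 29.6% and 33.1% of all features, with the ligand gene Fasl at 2.79 and the adaptor gene Fadd at 0.60, and Traf2 at -0.70 and Tnfrsf1a at -0.68.

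Upstream of the family, p53 and its targets and the factors that act on the family had members on both sides. Of 16 listed genes of p53 and its targets, 12 were tested, and 4 rose and 6 fell, beside 29.6% and 33.1% of all features. Phlda3 (2.71, at least 3.14-fold, since it was not detected in CD69- cells) and the cell cycle inhibitor Cdkn1a (2.46) rose most. Gadd45a (-1.92) and Sesn1 (-1.74) fell most. Bbc3 and Pmaip1 are p53 targets too, described above. Of 21 listed factors that act on the family's genes or proteins, 17 were tested, and 5 rose and 6 fell, a share near that of all features, led by E2f1 (3.33) and Myc (2.50) and, among those that fell, the stress factor Ddit3 (-1.35) and Foxo3 (-0.87). E2f1 and Cdkn1a were each detected in 1 of 3 CD69- libraries, so the sizes of their differences are uncertain. Between statuses, no gene of these 6 lists passed an adjusted p of 0.05 in limma.

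**Figure D5:**
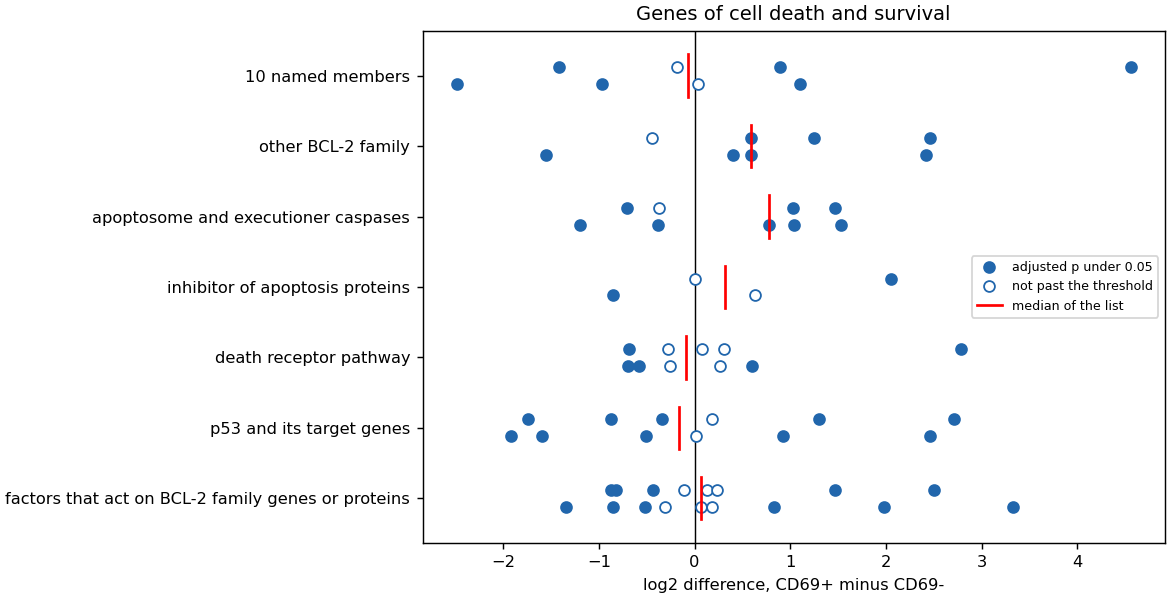
Log2 difference between CD69+ and CD69- cells for each tested gene of the named members and of 6 further lists, filled where the adjusted p was under 0.05, with a red line at each list's median. The median is 0.59 for the other BCL-2 family genes and 0.78 for the apoptosome and caspase genes, and every list has points on both sides of 0.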

How the data were processed

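T cell RNA (0.55 µg) was hybridised to 6 Illumina arrays, 1 for each status and sorted fraction. The intensity values were summarised per probe by the authors with GenomeStudio 2009.2, per the submitters' processing notes, and deposited without normalization. Each intensity was deposited by the authors with its detection p-value, per the file headers. The deposited value table holds linear intensity values with a median of 168.3 on every array and a rank correlation of 1 with the non-normalized columns; its scaling method is not given in the sources used here. Of 45281 probes, 34885 had 1 gene symbol, 18 several and 10378 none in the platform annotation, and 34807 were matched to RefSeq names. All value columns were mapped to samples.

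With limma 3.58.1 in R 4.3.3, background was corrected by normexp from detection p-values (offset 16), and intensities were quantile normalized and taken to log2. Probes detected (p under 0.01) on 1 or more arrays were kept, 1 per gene by mean signal, giving 10687 features. CD69+ was compared with CD69- with status as a block, and statuses with fraction as a block, leaving 2 residual degrees of freedom, with Benjamini-Hochberg adjustment over all features. Levels below detection were taken as measured, except in folds written "at least", which compare normalized log2 levels with the lowest level among detected probes of the array or the probe's own, whichever is higher. No batch was tested, as no label or header used here names a slide or scan date. The fits were tested on simulated data. Between CD69+ and CD69-, 11 of 67 planted 1.5-fold, 54 of 67 2-fold and 66 of 66 4-fold differences were recovered. Between tolerant and naive, 3 of 67, 39 of 67 and 65 of 66 were recovered in the same order, so 1.5-fold status differences were mostly missed. False calls numbered 11 for CD69+ against CD69- and 10 for tolerant against naive. In the data, the Bcl2 difference of 1.19 between rejecting and tolerant did not pass (adjusted p = 0.256, limma). Recovery in the data may thus be lower than in the simulation. Alternatives were the authors' table, no background correction, median centring, other offsets and filters, no block, and leaving out each pair.

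The members and gene lists were chosen with earlier results of these data known. All members and detected relatives are named, and from each other list up to 2 genes with the largest rise and 2 with the largest fall past the threshold.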

Additional observations from a re-analysis of the deposited data

Results flagged for a closer look

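For Bcl2, the CD69+ minus CD69- log2 difference was -0.52 in the rejecting pair, 0.65 in the tolerant pair and -0.01 in the naive pair, so that statuses moved in opposite directions. For Bad it was -0.19 in the rejecting pair, 0.16 in the tolerant pair and -0.52 in the naive pair. Each value rests on 1 array per fraction, and the differences between statuses were not tested.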

How the results depend on the processing

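Bbc3, Mcl1 and Bid kept their call and direction between CD69+ and CD69- cells under all 12 alternatives, and Bcl2l1 and Bak1 under the 11 that kept their probes, with log2 differences of 3.26 to 4.70 for Bcl2l1, -2.67 to -2.26 for Bbc3, -1.64 to -1.22 for Mcl1, 0.97 to 1.28 for Bid and 0.45 to 0.99 for Bak1. Bcl2l11 ranged from -1.23 to -0.71 and lost its call in 2 of 12, without the rejecting or the naive pair. In this comparison the authors' table and no background correction gave the same member values, so these alternatives are not separate checks. Leaving out 1 pair gave Bcl2 values from -0.26 to 0.32, turning its uncalled direction without the tolerant pair. Members called numbered 4 with detection required on all 6 arrays, where Bcl2l1 and Bak1 were not tested, and 5 to 6 otherwise. Median centring moved the median difference of all features from -0.05 to 0.09, with 3626 features higher and 2620 lower in CD69+ cells, against 3164 and 3533, and turned 2 uncalled status values, Mcl1 for tolerant minus naive (-0.071) and Bid for rejecting minus tolerant (-0.057). Between statuses, 0 members were called under any alternative. Over all features, rejecting minus tolerant gave 2 calls, against 23 with the authors' table, 23 without background correction, 13 with an offset of 50, 14 with detection on all 6 arrays, 87 with an intensity trend and robust variance, 0 without the fraction block and 1 without the naive pair. Tolerant minus naive gave 1 call, against 0 with detection on all 6 arrays, 0 without the fraction block and 6 with the trend. The cause was not tested. The 72 single-library values were each recomputed under 4 alternatives; over 1 SD was moved in 51 of these recomputed values and not in the other 237, and 0 called ones turned. Without the status block, 6447 features differed between fractions, against 6697. Signal near background limits Bak1, the dim probes of Bbc3 and the CD69- level of Bcl2l1.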
